A study of Mus musculus with 2 samples.

Results

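Myeloid cluster 2 is the group of esophageal cells that the authors annotated as myeloid and numbered 2, and its members were taken from the deposited cell annotation without any further choice. It held 525 of the 4853 cells of the series, of which 169 were control and 356 Keap1 cKO cells. The control library came from mice with the Keap1 floxB allele on both chromosomes. The Keap1 cKO library came from the same floxed genotype that also carried K5CreERT2, a tamoxifen-activated Cre recombinase driven by the keratin 5 promoter, which is active in basal keratinocytes and not in myeloid cells. Both groups share the floxed alleles and a mixed background of C57BL/6J and BALB/c. The sources used here give neither age, nor the schedule of tamoxifen, nor the number of mice behind a library. Cells of the muscle-stripped esophagus were profiled by droplet 3′ RNA sequencing with unique molecular identifiers (UMIs). Each genotype has 1 library and no replicate, so the genotypes were not tested against each other, and every interval is a 95% interval that covers counting error only.

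Macrophages of mucosal tissues engulf dying cells and debris, produce complement and growth factors, and are partly long-lived residents and partly replaced from blood monocytes. Residents around vessels and in connective tissue carry the mannose receptor Mrc1 (CD206), the hyaluronan receptor Lyve1 and the phosphatidylserine receptor Timd4. Newly arrived monocytes carry Ly6c2, Ccr2 and Plac8 and lose the first of these as they mature. Dendritic cells take antigen to T cells, depend on the receptor Flt3, and when they migrate carry the chemokine receptor Ccr7. Keap1 holds the transcription factor NRF2 low by sending it to the proteasome.

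The cluster gave 1777352 control UMIs and 2422549 Keap1 cKO UMIs, with a median of 7839 and 6473 UMIs and 2557 and 2423.5 genes per cell. The libraries had 5 cell barcodes in common, of which 0 control cells and 1 Keap1 cKO cell lay in cluster 2. Keap1 itself (mm10 chr9:21229730-21239361, minus strand) had 112 and 128 UMIs in the cluster, or 63.0 and 52.8 counts per 1000000 (CPM), log2 ratio −0.25 (−0.63 to 0.12). No source used here states which exons floxB loses, so 3′ tags may lie outside the deleted part and check nothing. Markers of other cells were summed in the control and Keap1 cKO libraries. They came to 1259 and 910 CPM for 12 keratinocyte genes and 1441 and 723 CPM for 11 fibroblast genes. The sums were 298 and 264 CPM for 10 T cell genes and 23.1 and 396 CPM for neutrophil genes, of which the data held 10 of 12. The neutrophil sum came mostly from S100a8 and S100a9, at 0 and 418 and at 2 and 339 UMIs, and the Keap1 cKO library held 1.03 and 0.975 UMIs of these genes per erythrocyte, so they stood at the level of free RNA. The neutrophil gene Csf3r had 5 UMIs in 5 control cells and 88 UMIs in 72 Keap1 cKO cells, and the part of free RNA in it was not tested. Genes of NK cells, eosinophils and mast cells were at or near 0. Of 6 eosinophil markers only 2, Siglecf and Ccr3, were among the genes of the data, and neither had a UMI in either library.

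Most macrophage markers went with the label macrophage. Of all 19 clusters, cluster 2 had the highest level of Mrc1, the complement genes C1qa and C1qb, the transglutaminase F13a1, the lysozyme Lyz2 and the secreted protein Retnla in both libraries. These genes were the ones taken to mark the cluster, so their rank is a description. Mrc1 stood at 588 CPM in the control library and 601 CPM in the Keap1 cKO library, against 39.3 and 40.0 CPM in the next cluster. Cluster 2 held 92.2% and 92.1% of all Mrc1 UMIs. The macrophage gene Csf1r was highest in cluster 2 only in the Keap1 cKO library, at 446 CPM. In the control library it stood at 451 CPM, below 491 CPM in the 34 control cells of cluster 12. The label dendritic rested on less. Ccr7 had 0 and 1 UMI, Xcr1 and Clec9a, which mark cross-presenting dendritic cells, had 1 and 0 and 0 and 1 UMIs, and the dendritic transcription factor Zbtb46 had 7 and 8. Flt3 had 4 and 75 UMIs, 2.25 and 31.0 CPM, while cluster 12, annotated as B cells, stood at 32.7 and 112 CPM for the same gene. When each cell was called by the fixed marker list with the most UMIs per gene, the dendritic list led in 1 control cell and in 0 of 356 Keap1 cKO cells. The dendritic list holds genes with few UMIs, such as Ccr7 and Flt3, while the macrophage list holds abundant ones such as C1qa. This call could therefore hardly favor the dendritic list and decides nothing about it. Because the dendritic markers above were low, no cells are called dendritic below.

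Cluster 2 took a larger share of the Keap1 cKO library and a smaller share of its leukocytes. Its share was 6.84% (5.87 to 7.90) in the control library, and 14.95% (13.5 to 16.4) in the other. Of the cells in the 6 leukocyte clusters, 348 and 1179, it made up 48.6% (43.2 to 54.0) and 30.2% (27.6 to 32.9). Retnla, which helps define the cluster, differed between the libraries, so these sizes are given as composition. They can also move with the yield of other cells at dissociation and with the depth of the library.

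Clustering of the 525 cells alone gave 7 subclusters that were divided largely by library. Subcluster 1, led by Fxyd2, Lyve1, Timd4, Fcna, the complement gene C4b and the chemokine Pf4, was macrophage-like and held 112 control cells, 66.3% (58.6 to 73.4), and 2 Keap1 cKO cells, 0.562% (0.0681 to 2.01). Subcluster 6 was also macrophage-like and was led by the scavenger receptor Stab1, the lysosomal protease Lgmn, Cbr2 and the cholesterol exporter Abca1. It held 3 control cells, 1.78%, and 89 Keap1 cKO cells, 25.0% (20.6 to 29.8). Subcluster 3 was led by the elastase Mmp12, Ms4a7, Il1rn and the interferon-response genes Isg15, Irf7 and Oasl2, and held 2 and 81 cells. Mmp12 lay in 16 Keap1 cKO cells of the whole cluster, and 1 cell held 227 of its 298 UMIs there. No marker list had more than 2 genes among the leading genes of subcluster 3, and these were the neutrophil genes S100a8 and S100a9, so it stayed unnamed. Since each library filled its own subclusters, a subcluster may be that library rather than a type of cell.

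The remaining subclusters held a monocyte-like group and several mixtures. Subcluster 7, led by Ly6c2, Chil3, Plac8, Hp and Gsr, was monocyte-like and held 0 of 169 control cells, for which 3 cells would be 1.78%, and 18 of 356 Keap1 cKO cells, 5.06% (3.02 to 7.87). When each cell was called by marker lists, the monocyte list led in 33 control cells, 19.5%, and 171 Keap1 cKO cells, 48.0%. That call leans to lists with abundant genes. Subcluster 4, led by Tnip3, the cytokine gene Il1b and the lectin Cd209a, held 21 and 88 cells, 12.4% and 24.7%. It met the fixed rule for dendritic-like with 3 markers at this resolution, but no subcluster met it at the lower resolution of 0.3. At a resolution of 1.0 the cells that met it made up 21.9% of control and 7.02% of Keap1 cKO cells, which turned the direction, so subcluster 4 is called by its number. In the Keap1 cKO library Cd209a was higher in subcluster 5, at 334 CPM, than in subcluster 4, at 69.9 CPM. Subcluster 5 carried T cell and cycling genes (Xcl1, Ccl5, Trac, Cd3e, Mki67) beside macrophage genes, held 26 and 15 cells, and was deep, with median UMIs of 22623 and 13598 per cell. Subcluster 2 was led by hemoglobin genes, held 5 and 63 cells, and was shallow in the Keap1 cKO library, at a median of 3898 UMIs. Whether these last groups hold doublets was not tested.

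**Figure D1:**
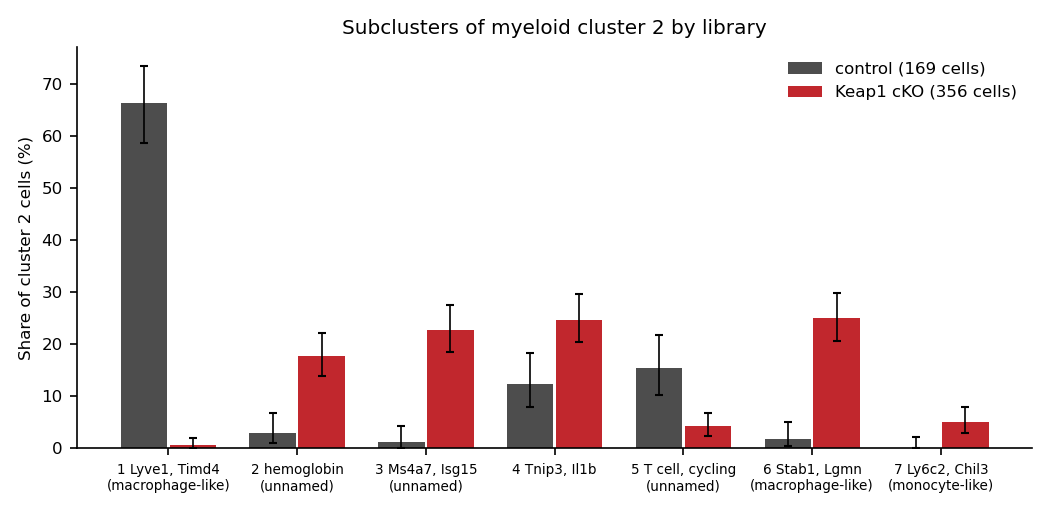
Share of cluster 2 cells in each of 7 subclusters (x axis, with leading genes) as a percent of the cluster 2 cells of that library (y axis); bars are the control library (169 cells) and the Keap1 cKO library (356 cells), and error bars are exact 95% binomial intervals. Subcluster 1 holds 66.3% of control cells, while subclusters 2, 3, 4 and 6 together hold most Keap1 cKO cells.

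Both macrophage-like subclusters together held 115 control cells, 68.0% (60.4 to 75.0), and 91 Keap1 cKO cells, 25.6% (21.1 to 30.4). Values within this macrophage-like class set mainly subcluster 1 of the control library beside subcluster 6 of the Keap1 cKO library. Hemoglobin and other erythroid genes summed to 20790 CPM in its control cells and 668 CPM in its Keap1 cKO cells, and the Keap1 cKO cells with the most hemoglobin lay in subcluster 2. Fibroblast genes summed to 1879 and 672 CPM there. The part of either in the ratios within the class was not tested. In bulk sums over cluster 2, fewer cells of a kind and less RNA per cell cannot be told apart.

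**Figure D2:**
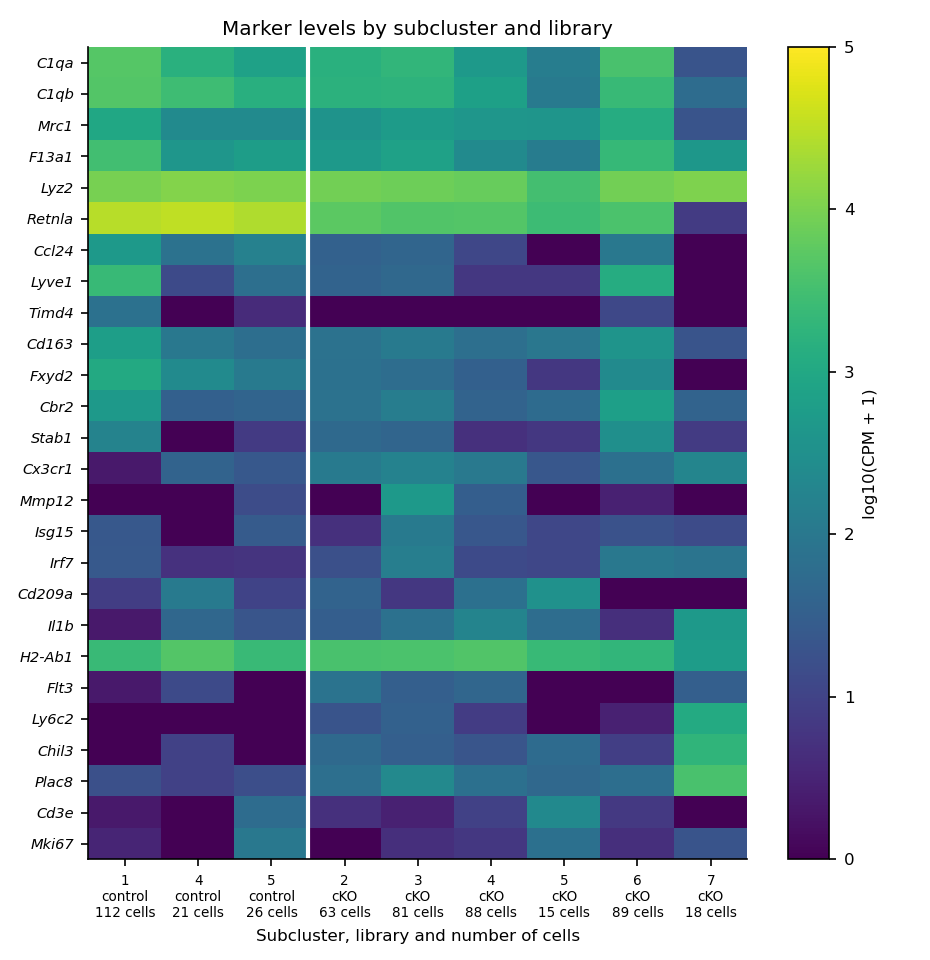
Levels of marker genes (rows) in the subclusters that held at least 15 cells of a library (columns, control left and Keap1 cKO right of the white line, with the number of cells), as log10(CPM + 1) from summed UMIs. Retnla is bright in all 3 control columns and dimmer in every Keap1 cKO column, and Ly6c2 and Chil3 are bright in subcluster 7.

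Retnla, which encodes RELM-alpha, a secreted protein of macrophages that respond to interleukin 4 and interleukin 13, had the largest drop in UMIs of the marker genes. It lies on mm10 chr16:48842551-48844461, plus strand. Its RefSeq promoter window (GRCm38.p6 chr16:48842359-48842658, plus strand, 250 bases before to 50 after the start) is shown because the gene carried that drop. Capitals mark the palindrome TTCNNNNGAA, the form bound by STAT6, the transcription factor that interleukin 4 signalling activates.

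Retnla: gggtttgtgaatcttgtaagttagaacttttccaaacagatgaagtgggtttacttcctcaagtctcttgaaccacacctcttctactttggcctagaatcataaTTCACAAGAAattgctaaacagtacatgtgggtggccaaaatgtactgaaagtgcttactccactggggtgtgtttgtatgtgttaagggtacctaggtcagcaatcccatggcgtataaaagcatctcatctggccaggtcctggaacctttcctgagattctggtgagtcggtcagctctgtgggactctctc

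The match begins 145 bases before the annotated start. These letters occur in 6.94% of 32817 promoter windows of the same length, and a match is a description and not a binding site. Retnla counted 49801 control UMIs against 9868 Keap1 cKO UMIs, 28020 and 4073 CPM, log2 ratio −2.78 (−2.81 to −2.75), 6.88-fold lower by CPM. Since Retnla also marks the cluster, these values are a description. The drop was seen within groups of cells as well. The macrophage-like class had 24762 and 2134 UMIs, a ratio of −2.85 on the log2 scale, and Retnla in subcluster 4 stood at 32511 CPM in 21 control cells and 4669 CPM in 88 Keap1 cKO cells. The monocyte-like cells of the Keap1 cKO library held 1 UMI of Retnla among 18 cells.

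Single cells showed how the difference was spread. Retnla took a median of 2.75% of the UMIs of a control cell, with a lowest value of 0, a 90th percentile of 5.60% and a highest of 16.8%. In Keap1 cKO cells the median was 0.0213%, the 90th percentile 1.21% and the highest 4.94%. At least 1% of UMIs came from Retnla in 143 control cells, a share of 84.6% (78.3 to 89.7). The same held for 50 Keap1 cKO cells, a share of 14.0% (10.6 to 18.1). The libraries overlapped, and some Keap1 cKO cells were as high as the median control cell. After each cell was thinned to 2000 UMIs, which left out 11 and 34 shallower cells, 94.9% and 50.3% of cells kept a UMI of Retnla, against 98.2% and 59.3% without thinning. The T cells in cluster 3, which should lack Retnla, showed it after the same thinning in 28.1% of the 57 control cells and 4.57% of the 372 Keap1 cKO cells, at median depths of 5299 and 8224.5 UMIs. The part of free RNA in the cluster 2 values was not tested. In fibroblast cluster 1 the log2 ratio of Retnla was −1.20 (−1.53 to −0.89), and in endothelial cluster 8 it was −4.43 (−4.85 to −4.04).

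**Figure D3:**
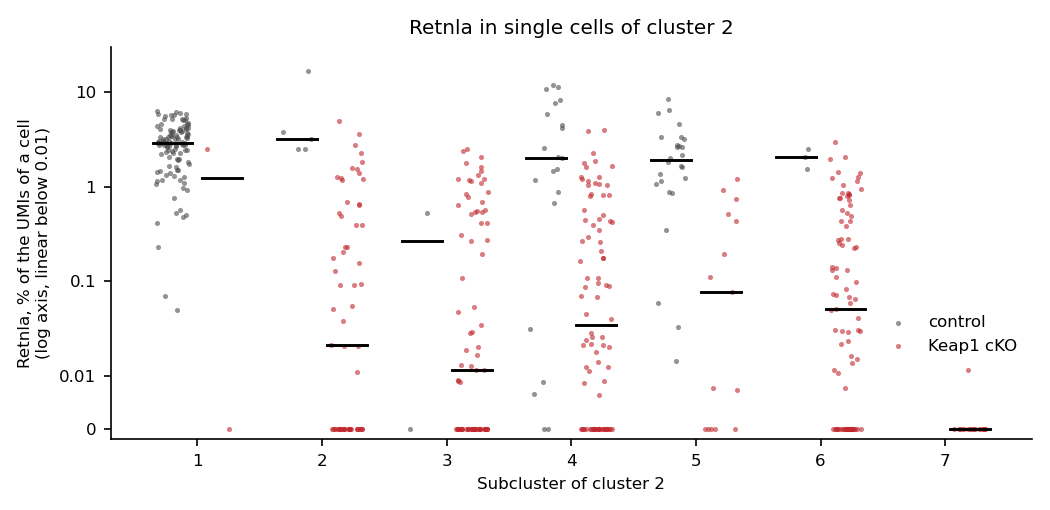
Percent of the UMIs of each cell that came from Retnla (y axis, logarithmic and linear below 0.01) in the 7 subclusters (x axis); each point is a cell, control or Keap1 cKO, and black bars are medians. Control cells of subclusters 1, 4 and 5 lie mostly above 1%, and many Keap1 cKO cells lie at 0.

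Genes of the resident CD206 macrophage were lower as a group. Of 24 members of this list with at least 20 UMIs, 0 were at least 2-fold higher in the Keap1 cKO library and 13 were at least 2-fold lower, and the median log2 ratio was −1.14. Over all 9660 genes measured in cluster 2, 5.72% were at least 2-fold higher and 4.74% at least 2-fold lower, with a median of 0.08. Within the macrophage-like class the list had 1 higher and 7 lower members and a median of −0.37. That median was −0.86 with cells called by marker lists and −1.11 with subcluster 3 added to the class, and over cluster 2 it was −0.44 with macrophage-like and subcluster 4 cells weighted equally. In the class 6.73% of 6969 genes were at least 2-fold higher and 4.59% at least 2-fold lower, and the median of all genes was 0.13, which is the shift that median-of-ratios scaling removes. Lyve1, the hyaluronan receptor, had 2038 and 714 UMIs, 1147 and 295 CPM, log2 ratio −1.96 (−2.08 to −1.84). Of its UMIs, 95.8% lay in subcluster 1 in the control library and 92.2% in subcluster 6 in the Keap1 cKO library, so Lyve1 was carried by the macrophage-like cells of each. Lyve1 stood at 2300 CPM in the former and 1245 CPM in the latter. Lyve1, Timd4, Pf4, Cd209f and Folr2 were leading genes of subcluster 1, which held most control cells of the class. Levels of such resident genes within the class are therefore a description.

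Timd4, which binds phosphatidylserine on dying cells, was among the lowest of the list. It had 66 and 7 UMIs, 37.1 and 2.89 CPM, log2 ratio −3.68 (−5.05 to −2.56), and 64 and 7 UMIs within the macrophage-like class. The hemoglobin scavenger receptor Cd163 was 2.31-fold lower, at 344 and 149 CPM, and the folate receptor Folr2 3.73-fold lower, at 443 and 119 CPM. Pf4, a platelet-type chemokine that resident macrophages also make, had 2388 and 759 UMIs, log2 ratio −2.10 (−2.22 to −1.98). Fcrls, an Fc receptor-like scavenger receptor, had 846 and 282 UMIs, −2.03 (−2.23 to −1.84), and the lectin gene Mgl2 −1.35 (−1.48 to −1.22). Mrc1 did not follow them: it had 1045 and 1457 UMIs, log2 ratio 0.03 (−0.08 to 0.15), and 0.40 within the macrophage-like class. Among subclusters with at least 15 cells of a library, Mrc1 was highest in the macrophage-like ones, at 936 CPM in subcluster 1 of the control library and 1238 CPM in subcluster 6 of the Keap1 cKO library.

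Genes of the core macrophage list, which most macrophages share, were close to the median of all genes. Of 20 members, 3 were at least 2-fold higher and 2 at least 2-fold lower, and the median log2 ratio was −0.02. Over all genes these shares were 5.72% and 4.74%. The growth factor receptor Csf1r, on which macrophages depend, had 802 and 1081 UMIs, 451 and 446 CPM, −0.02 (−0.15 to 0.12). Apoe, a lipid carrier, stood at 0.02 (−0.04 to 0.08). The 3 higher members were Cx3cr1, Ms4a7 and the immunoglobulin receptor Fcgr1. The fractalkine receptor Cx3cr1 (chr9:119901616-120069879, minus strand) had 27 UMIs in 12 control cells and 266 UMIs in 136 Keap1 cKO cells, 15.2 and 109.8 CPM, log2 ratio 2.85 (2.28 to 3.48). After thinning, Cx3cr1 was seen in 2.53% and 18.3% of cells, against 1.75% and 2.69% of T cells in cluster 3, and at full depth in 7.10% and 38.2%. Within the macrophage-like class Cx3cr1 had 1 and 36 UMIs.

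Complement genes were lower at the first component. The complement list had 1 member at least 2-fold higher and 5 at least 2-fold lower among 15, with a median of −0.11. Over all genes these shares were 5.72% and 4.74%. Among the lower members Serping1, with 89 and 31 UMIs, −1.97, stood near the level of free RNA and is not separate from it. The 3 chains of C1q, which tag dying cells and debris, were all on the lower side. C1qa had 4956 and 3824 UMIs, −0.82 (−0.88 to −0.76), C1qb 5648 and 3098, −1.31 (−1.38 to −1.25), and C1qc 3377 and 1879, −1.29 (−1.37 to −1.21). In the macrophage-like class their log2 ratios were −0.36, −1.01 and −0.85. C1qa, C1qb and C1qc were among the markers that named subcluster 1, which held most control cells of the class. These ratios within the class are therefore a description. C4b had 409 and 120 UMIs, −2.22 (−2.52 to −1.92), while the anaphylatoxin receptor genes C3ar1 and C5ar1 stood at 0.42 and 0.24.

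Monocyte genes were higher over the whole cluster. Of 17 members of the monocyte list, 16 had at least 20 UMIs. Of these, 11 were at least 2-fold higher and 1 was lower, with a median log2 ratio of 1.81. Ly6c2 and Hp enter it with a floor of 3 control counts. Over all genes of cluster 2, 5.72% were at least 2-fold higher and 4.74% at least 2-fold lower. Only 6 members were measured within the macrophage-like class, of which 2 were higher and 0 lower, with a median of 0.11. Over cluster 2 the median was 0.80 with macrophage-like and subcluster 4 cells weighted equally and 3.36 without subclusters 2 and 5. Ly6c2, a surface protein of classical monocytes (chr15:75108158-75111970, minus strand), had 0 UMIs in 169 control cells and 211 in the Keap1 cKO library. Set to a floor of 3 counts for all control cells, it was 51.6-fold higher, a log2 ratio of 5.69 with a lower limit of 5.38. These UMIs lay in 30 cells, and 181 of them in the monocyte-like subcluster 7. Chil3, a chitinase-like secreted protein (chr3:106147554-106167564, minus strand), had 2 and 351 UMIs, 1.13 and 144.9 CPM, log2 ratio 7.01 (5.14 to 10.06), and 292 of the Keap1 cKO UMIs lay in subcluster 7. Plac8 (chr5:100553725-100572245, minus strand) had 25 and 795 UMIs, 4.54 (3.97 to 5.18), and lay in 90 Keap1 cKO cells. Ly6c2 and Chil3 have close relatives in the genome that can share reads.

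Some monocyte genes were spread over many cells and others were not. Ms4a4c had 3 and 132 UMIs, log2 ratio 5.01 (3.43 to 7.31), in 3 and 61 cells. The chemokine receptor Ccr2, which monocytes need to leave the bone marrow, had 1568 and 3407 UMIs, 0.67 (0.59 to 0.76). The lowest control level of Ccr2 among subclusters with at least 15 cells was 688 CPM, in the Lyve1-rich subcluster 1. Fn1, fibronectin, had 3208 and 8302 UMIs, 0.92 (0.87 to 0.98), and within the macrophage-like class 302 and 1096 UMIs, a log2 ratio of 2.54. Lyz1 was the lower member, with 2587 and 510 UMIs, −2.79 (−2.93 to −2.65). Of its control UMIs, 1787 lay in the 26 cells of subcluster 5, and without subclusters 2 and 5 its log2 ratio was −1.66. Lyz1 and Lyz2 are near-identical copies whose reads can be split, and Lyz2 stood at −0.39 (−0.42 to −0.36).

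Inflammatory and innate sensing genes were more often higher than lower over the whole cluster. The inflammatory list had 7 higher and 2 lower of 19 measured members, with a median of 0.53, and the innate sensing list 6 and 1 of 22, with a median of 0.51. Over all genes these shares were 5.72% and 4.74%, and 6.73% and 4.59% in the macrophage-like class. In macrophage-like cells alone the inflammatory list had 2 higher and 1 lower of 10, with a median of −0.14, and the innate sensing list 2 and 0 of 15, with a median of 0.15. Il1b, which encodes the cytokine interleukin 1 beta (chr2:129364570-129371139, minus strand), had 26 UMIs in 9 control cells and 268 UMIs in 83 Keap1 cKO cells, 14.6 and 110.6 CPM, log2 ratio 2.92 (2.34 to 3.56). In the Keap1 cKO library 131 of these UMIs lay in subcluster 4 and 77 in subcluster 7. After thinning, Il1b was seen in 1.27% and 11.8% of cells, against 0 of 57, which allows up to 5.26%, and 0.806% of T cells in cluster 3, and at full depth in 5.33% and 23.3%. Within the macrophage-like class Il1b had 1 and 2 UMIs. The mycobacterial cord factor receptor Clec4e had 22 and 188 UMIs, 2.65 (2.01 to 3.36), and its relatives Clec4d and Clec4n stood at 2.34 and 3.03. Slpi and Lcn2, at 3.48 and 3.14 among the higher members, stood near the level of free RNA and are not separate from it. For Tnf, with 29 and 40 UMIs and 0.02 (−0.71 to 0.76), no difference was detectable at this depth, and Nos2 had no UMI in either library.

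Chemokine genes were more often lower over the whole cluster. Of 16 measured members, 1 was at least 2-fold higher and 8 were at least 2-fold lower, with a median of −0.83. Over all genes these shares were 5.72% and 4.74%. Within the macrophage-like class 2 of 14 were higher and 4 lower, with a median of −0.26, beside 6.73% and 4.59% of all genes. Ccl24, eotaxin-2, a chemokine for eosinophils (chr5:135569937-135573049, minus strand), had 538 UMIs in 117 control cells and 99 UMIs in 50 Keap1 cKO cells, 303 and 40.9 CPM. Its log2 ratio was −2.89 (−3.21 to −2.58), 7.41-fold lower, and −2.12 within the macrophage-like class. After thinning, Ccl24 was seen in 41.8% and 7.45% of cells and in none of 57 and 372 T cells of cluster 3, which allows a share of up to 5.26% and 0.806%; at full depth it was seen in 69.2% and 14.0%. The monocyte attractants Ccl2 and Ccl7 had log2 ratios of −1.98 (−2.30 to −1.66) and −1.70 (−2.16 to −1.26). Of the 329 control UMIs of Ccl2, 189 lay in subcluster 5, and within the macrophage-like class Ccl2 stood at −0.70 and Ccl7 at −1.09. Ccl6 and Ccl9 stood at 0.09 and −0.01. Ccl5 had 109 and 7 UMIs, −4.41 (−5.76 to −3.32), but 107 of the control UMIs lay in 5 cells. The lymphotactin gene Xcl1 had 101 and 1 UMIs, and 63 of the control UMIs came from a single cell. Both were genes of the T cell subcluster 5.

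Cytokine receptor genes stood on the other side over the whole cluster. Of 21 measured members, 5 were at least 2-fold higher and 0 lower, with a median of 0.60, beside 5.72% and 4.74% of all genes. Within the macrophage-like class 1 of 18 was higher and 0 lower, with a median of 0.35. That count is near the share of all genes in the class, 6.73% higher. The interferon gamma receptor gene Ifngr1 had 403 and 1278 UMIs, 227 and 527.5 CPM, 1.22 (1.06 to 1.38). Il17ra, the receptor for interleukin 17, had 50 and 175 UMIs, 1.36 (0.90 to 1.84), and Il6ra 426 and 883, 0.60 (0.44 to 0.77).

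Interferon-response genes were mixed. Of 26 measured members, 8 were at least 2-fold higher and 2 lower, with a median of 0.87, beside 5.72% and 4.74% of all genes. Within the macrophage-like class 2 of 21 were higher and 4 lower, beside 6.73% and 4.59% of all genes, and the list median was −0.39. When subcluster 3 was added to that class, a choice made after the data were seen, the median was 0.68. Irf7, a transcription factor of interferon signalling (chr7:141262706-141266481, minus strand), had 24 and 154 UMIs, 2.24 (1.61 to 2.92), of which 74 Keap1 cKO UMIs lay in subcluster 3 and 52 in subcluster 6. Ifit1, which binds foreign RNA caps, had 5 and 45 UMIs, 2.72 (1.39 to 4.41). Ifi44 had 0 and 23 UMIs, all 23 in subcluster 3. Cxcl10 and Gbp2b went the other way, at 117 and 30 UMIs, −2.41 (−3.04 to −1.82), and at 114 and 18 UMIs, −3.11 (−3.92 to −2.39). Of the control UMIs of Cxcl10, 77 lay in 5 cells, and without subclusters 2 and 5 its log2 ratio was −1.16.

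The promoters of a higher and a lower interferon gene are set side by side because both hold the interferon-stimulated response element. Capitals mark GAAANNGAAA on either strand, found in 3.43% of 32817 windows and in 13 of the 20 interferon list genes with a window. The windows are RefSeq GRCm38.p6 chr19:34640639-34640938, plus strand, for Ifit1 and chr3:142594597-142594896, plus strand, for Gbp2b.
Ifit1: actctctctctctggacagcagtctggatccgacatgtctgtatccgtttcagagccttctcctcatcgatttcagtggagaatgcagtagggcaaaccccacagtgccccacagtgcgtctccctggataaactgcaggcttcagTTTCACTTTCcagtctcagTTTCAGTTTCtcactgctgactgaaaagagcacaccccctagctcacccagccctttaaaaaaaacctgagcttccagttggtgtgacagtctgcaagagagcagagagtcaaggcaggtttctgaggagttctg
Gbp2b: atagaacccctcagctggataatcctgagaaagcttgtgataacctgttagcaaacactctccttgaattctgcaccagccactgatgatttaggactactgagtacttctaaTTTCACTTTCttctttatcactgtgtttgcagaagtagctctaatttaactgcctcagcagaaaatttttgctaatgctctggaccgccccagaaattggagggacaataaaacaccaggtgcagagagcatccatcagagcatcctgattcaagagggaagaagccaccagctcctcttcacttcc
Of the 15 genes with the highest ratios, 12 had a window and 0 held this motif, and of the 15 with the lowest ratios 10 had a window and 2 held it. A missing match says only that these letters are not in the window.

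**Figure D4:**
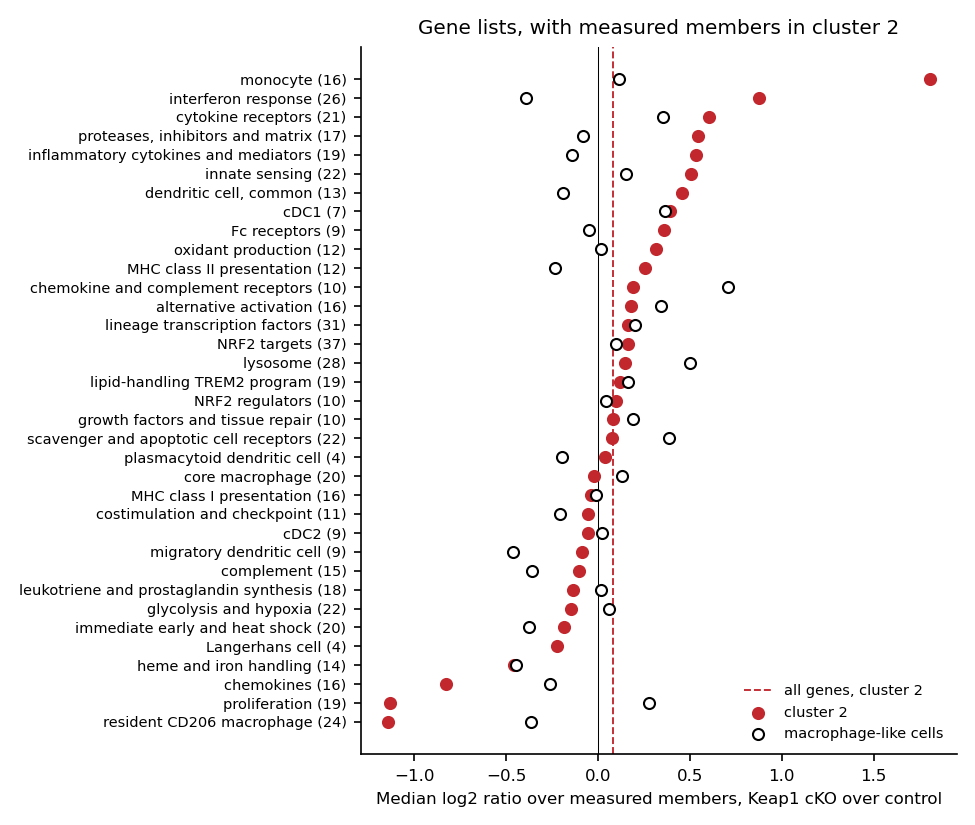
Median log2 ratio of CPM, Keap1 cKO over control (x axis), over the measured members of each gene list (y axis, with their number), in all of cluster 2 (filled) and in macrophage-like cells (open); the dashed line is the median of all genes in cluster 2. The monocyte list lies farthest right at 1.81 and the resident CD206 macrophage list farthest left at −1.14; in macrophage-like cells they lie at 0.11 and −0.37, the latter at −1.11 with subcluster 3 added.

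Antigen presentation genes differed little. Of 12 measured class II genes, 1 was at least 2-fold higher and 1 lower, with a median of 0.26, and of 16 class I genes 0 and 0, with a median of −0.04. Over all genes these shares were 5.72% and 4.74%. H2-Ab1, the class II beta chain, had 4903 and 7894 UMIs, 2759 and 3259 CPM, 0.24 (0.19 to 0.29). Within the macrophage-like class it stood at −0.37 and the invariant chain Cd74 at −0.67. Among subclusters with at least 15 cells of a library, H2-Ab1 was highest in subcluster 4, at 4677 CPM in control cells and 4479 CPM in Keap1 cKO cells. The class II accessory gene H2-DMb2 was the lower member, with 106 and 60 UMIs, −1.27 (−1.75 to −0.80), and the protease gene Lgmn the higher, with 523 and 1628, 1.19 (1.05 to 1.34).

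Dendritic lists had few measured members and small medians. Over all genes of cluster 2, 5.72% were at least 2-fold higher and 4.74% at least 2-fold lower. The common dendritic list had 4 higher and 1 lower of 13, with a median of 0.46, the cDC1 list 1 and 0 of 7, the cDC2 list 2 and 1 of 9, and the migratory list 0 and 0 of 9. Flt3 had the largest ratio, 3.78 (2.37 to 5.69), and lay in 2 control and 44 Keap1 cKO cells. After thinning, Flt3 was seen in 0 of 158 cells, which allows up to 1.90%, and in 5.90%, against 1.18% and 12.4% without thinning. The T cells in cluster 3 had thinned shares of 0 of 57 (up to 5.26%) and 0.269%. Cd209a had 39 and 127 UMIs, 1.26 (0.73 to 1.81), but 62 of the Keap1 cKO UMIs lay in the 15 cells of subcluster 5, and without subclusters 2 and 5 the log2 ratio was −0.10. Irf4 and Irf8, transcription factors of dendritic and other myeloid cells, had log2 ratios of 1.09 (0.78 to 1.41) and 1.20 (0.81 to 1.60). The costimulatory ligand Cd86 was lower, −1.12 (−1.49 to −0.75).

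Lysosomal genes were more often higher than lower within the macrophage-like class. Over cluster 2, 2 of 28 members were at least 2-fold higher and 0 lower, with a median of 0.15. Within the class 6 of 28 were higher and 0 lower, with a median of 0.50. Over all genes these shares were 5.72% and 4.74% in cluster 2 and 6.73% and 4.59% in the class. The cysteine protease Ctsb had 1641 and 2217 UMIs in the class, a log2 ratio of 1.12, progranulin Grn 732 and 965, 1.08, Lgmn 446 and 889, 1.68, and Laptm5 720 and 902, 1.01. Lgmn and Ctsb were leading genes of subcluster 6, which held most Keap1 cKO cells of the class. Counts and levels of lysosomal genes within the class are therefore a description.

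Tissue proteases and matrix genes were more often higher than lower over the whole cluster. Of 17 measured members, 7 were at least 2-fold higher and 2 lower, with a median of 0.54, beside 5.72% and 4.74% of all genes. Within the macrophage-like class 2 of 9 were higher and 0 lower, with a median of −0.08, beside 6.73% and 4.59% of all genes. Mmp12, macrophage elastase (chr9:7344381-7369499, plus strand), had 9 UMIs in 4 control cells and 298 in 16 Keap1 cKO cells, 4.60 (3.66 to 5.75), but a single cell held 227 of the latter. Mmp12 also stood at 39.2 and 400 CPM in cluster 12. Mmp14 had 6 and 60 UMIs, 2.88 (1.67 to 4.38), and thrombospondin Thbs1 1 and 52, 5.25 (2.71 to 10.58). The alternative activation list, which holds Retnla, Ccl24 and Mgl2 on its lower side, had 5 higher and 3 lower of 16 and a median of 0.18. Its higher members included Chil3, above, and Arg1, the arginase, with 9 and 39 UMIs, 1.67 (0.60 to 2.90), in 4 and 17 cells.

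NRF2 target genes stood near the median of all genes in these cells. Of 37 measured members, 4 were at least 2-fold higher and 2 lower, with a median of 0.16, and of 10 NRF2 regulators 0 and 0, with a median of 0.10. Over all genes these shares were 5.72% and 4.74%. Nfe2l2, which encodes NRF2, had 234 and 363 UMIs, 0.19 (−0.05 to 0.43). The quinone reductase Nqo1 had 5 and 19 UMIs, 2.81 and 7.84 CPM, 1.48 (0.01 to 3.26), near the level of free RNA. Glutathione reductase Gsr (chr8:33652523-33698163, plus strand) had 26 and 176 UMIs, 2.31 (1.71 to 2.97). Of the Keap1 cKO UMIs of Gsr, 102 lay in the 18 monocyte-like cells, of which it was a leading gene, and the macrophage-like class had 11 in each library. Epoxide hydrolase Ephx1 was lower, with 161 and 41 UMIs, −2.42 (−2.95 to −1.92). Heme oxygenase Hmox1 had 411 and 420 UMIs, −0.42 (−0.62 to −0.22), and the ferritin gene Fth1 −0.31 (−0.36 to −0.27).

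Proliferation genes followed subcluster 5. Of 19 measured members, 0 were at least 2-fold higher and 10 were lower, with a median of −1.13. Over all genes these shares were 5.72% and 4.74%. Mki67, a marker of cycling cells, had 66 and 24 UMIs, of which 64 control UMIs lay in subcluster 5. Without subclusters 2 and 5 the median of the list turned to 0.47, and with macrophage-like and subcluster 4 cells weighted equally to 0.42.

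Genes for lipid, heme and repair held members on both sides. Over all genes of cluster 2, 5.72% were at least 2-fold higher and 4.74% at least 2-fold lower. The lipid-handling TREM2 list had 5 higher and 1 lower of 19, with a median of 0.12. Among its higher members Fabp5, at 1.52, stood near the level of free RNA and is not separate from it. The lipoprotein gene Apoc2 of this list had 16 and 77 UMIs, 1.82 (1.03 to 2.70), and 32 of the Keap1 cKO UMIs lay in subcluster 7. The fatty acid transporter Cd36 had 850 and 651 UMIs, −0.83 (−0.98 to −0.68). The heme and iron list had 1 higher and 2 lower of 14, with a median of −0.46, and its higher member was the hemoglobin scavenger haptoglobin Hp, with 0 and 106 UMIs, 75 of them in subcluster 7. Of 10 measured growth factor and repair genes 2 were higher and 3 lower. Within the macrophage-like class 2 of 8 were higher and 0 lower, with a median of 0.19. On the higher side, the growth factor gene Hgf had 3 UMIs in 3 control cells and 28 UMIs in 23 Keap1 cKO cells. Gas6, a bridge between dying cells and their receptors, had 413 and 215 UMIs, −1.39 (−1.63 to −1.15), and Bmp2 37 and 15, −1.75 (−2.72 to −0.85). Both stayed under 2-fold within the macrophage-like class, Gas6 at −0.34 and Bmp2 at −0.54.

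Immediate early and heat shock genes, which tissue dissociation also induces, were measured beside these. Of 20 members, 1 was at least 2-fold higher and 2 lower, with a median of −0.19, and within the macrophage-like class 0 and 5, with a median of −0.38. Over all genes these shares were 5.72% and 4.74%, and 6.73% and 4.59% in the class. The immediate early gene Fos had 3922 and 5852 UMIs, 0.13 (0.07 to 0.19), and the chaperone Hspa1a 800 and 422, −1.37 (−1.54 to −1.20). Socs3, an inhibitor of cytokine signalling, stood at −1.11 (−1.26 to −0.95) in cluster 2 and at −1.73 in the class. The part of dissociation in any ratio was not tested.

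Several genes outside the lists had ratios as large. On the higher side were Sirpb1c, a signal-regulatory receptor, with 7 and 122 UMIs, 3.68 (2.59 to 5.02), the G protein subunit Gngt2 with 19 and 276, 3.41 (2.74 to 4.17), and the receptor Gpr141 with 30 and 252, 2.62 (2.07 to 3.22). Lst1 had 47 and 305 UMIs, 2.25 (1.80 to 2.73), in 34 and 143 cells, and Slfn1 23 and 147, 2.23 (1.59 to 2.93). On the lower side were the tetraspanin Cd81 (chr7:143052739-143067934, plus strand), where 157 control cells held 1221 UMIs and 133 Keap1 cKO cells held 302, −2.46 (−2.65 to −2.28), with −2.45 within the macrophage-like class. Fxyd2, a regulator of the sodium pump, had 1045 and 217 UMIs, −2.71 (−2.93 to −2.50). Cavin1, a coat protein of caveolae, Gfra2, a receptor of the neurturin family, and the calcium channel genes Cacna1a and Ryr1 stood at −2.42, −2.41, −2.85 and −3.33. Of the control UMIs, 138 of 291 for Cavin1 and 64 of 96 for Ryr1 lay in subcluster 5, and within the macrophage-like class these genes stood at −1.32 and −2.12. Ccdc152 stood at −2.52, from 105 to 25 UMIs. Cacna1a stood at −2.65 within the class. These genes were named only if their direction in the class, where measured, matched that of the whole cluster, so the match is no added support.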

How the data were processed

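Single cells of the muscle-free esophagus of 1 control and 1 Keap1 cKO library were dispersed with trypsin and a gentleMACS device and sequenced with 10x Chromium 3′ chemistry, per the labels' protocols. The submitters' processing notes name the mm10 build, Seurat 4.0.2, Cell Ranger 6.0.1 and R 4.1.1. The authors deposited natural log values of 1 plus UMIs per 10000 in each cell. The smallest step of each cell gave back its UMI counts, and 100% of 13321499 positive values were whole within 0.01 UMIs. The authors also deposited the cell annotation that gives library and cluster.

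UMIs were summed per library and given as CPM. Ratios have exact conditional binomial intervals, single sums Poisson and shares above 0 Clopper-Pearson intervals, while the limit given for a share of 0 is 3 cells of the total, computed with scipy 1.17.1 and tested on simulated data. PCR duplicates are removed by UMIs, and intervals cover counting error only. A gene counted as measured with 20 UMIs or more in total; a fold of 2 is a size rule and not a call. Subclusters came from Leiden clustering in scanpy 1.11.5 (2000 variable genes, 20 components, 15 neighbours, resolution 0.6), named by at least 3 fixed markers among the 100 leading genes. No doublet was removed; leaving out the deepest 5% of cells was an alternative. Free RNA was read from erythrocytes: a gene stood near it with under 5 times as many UMIs per cell as per erythrocyte.

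Genes were named by rule: the 15 highest and 15 lowest ratios among genes with at least 100 UMIs and 50 CPM in 1 library, above free RNA and with 1 direction in the named classes, and in each list the 3 most abundant and 3 most different. Ccl2, Ccl7, Ccr7, Xcr1, Folr2, Lyve1, Tnf, Nos2, Arg1, Hmox1, Mki67, Zbtb46, Clec9a, Csf3r, S100a8 and S100a9 were named outside it after their values were seen. The cells, gene lists and rules were chosen with earlier results of these data known. Promoter windows come from RefSeq (GRCm38.p6) and gene positions from GENCODE vM21 on mm10.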

Additional observations from a re-analysis of the deposited data

How the results depend on the processing

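The cell mix and the way subsets are called limit these results more than counting error does, and 1 library per genotype limits all of them. No paired analysis was possible because each genotype has 1 library. Each library also could not be left out for the same reason. Of the main values, 42 of the 75 recomputed under an alternative moved by less than their interval or by less than 1.5 times for a count, and 33 moved. With a minimum of 10, 50 and 100 UMIs, the genes at least 2-fold lower numbered 777, 202 and 111, and with 50 and 100 UMIs those higher numbered 303 and 172. With macrophage-like and subcluster 4 cells weighted equally there were 290 lower genes, the resident CD206 macrophage list stood at −0.44, the monocyte list at 0.80, the proliferation list turned to 0.42 and Cd209a turned to −0.78. Without subclusters 2 and 5 (added once the data had been seen) the same 4 values were −1.41, 3.36, 0.47 and −0.10. The log2 ratio of Retnla in cluster 2 was −2.86 with median-of-ratios scaling, −3.05 as a mean over cells, −2.85 without the deepest 5% of cells, −2.82 with equal weights and −2.87 without subclusters 2 and 5. In macrophage-like cells Retnla was −2.98 with median-of-ratios scaling and −2.78 with subcluster 3 added. The resident CD206 macrophage list in macrophage-like cells was −0.86 with cells called by marker lists and −1.11 with subcluster 3 added. As a share of leukocytes cluster 2 made up 48.6% and 30.2%, and of cells with at least 2000 UMIs it made up 16.7% of the Keap1 cKO library. Calling cells by marker lists gave macrophage shares of 79.9% and 52.0%, dendritic shares of 0.592% and 0%, and monocyte shares of 19.5% and 48.0%. That call leans to lists with abundant genes, so its dendritic shares decide nothing. The dendritic-like shares were 0% and 0% at resolution 0.3 and 21.9% and 7.02% at 1.0, where the monocyte-like share of Keap1 cKO cells was 12.6%. Of the values of single genes and lists, 601 did not move, 93 moved, and 4 that had been at least 2-fold, given above for the proliferation list and Cd209a, turned direction. The interferon list in macrophage-like cells, under 2-fold, changed sign from −0.39 to 0.68 with subcluster 3 added. The cause of each move was not tested.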
